A study of Mus musculus with 18 samples.

Results

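Selenow, Selenot and Selenoh are 3 of the 23 selenoprotein genes whose ribosome footprints and mRNA were measured in mouse liver. They were chosen by name, as the rows that the deposited tables list under the older symbols Sepw1, Selt and Selh. The livers were snap-frozen whole organs of young adult males aged 5 to 8 weeks, in 4 groups. Secisbp2 knockout mice were Alb-Cre; Secisbp2fl/fl (2 libraries per assay), and their matched male littermates were wild type (2 libraries). Trsp knockout mice were Alb-Cre; Trspfl/fl (2 libraries), and their matched littermates were wild type (3 libraries). The labels give no Cre status for the wild type littermates. Alb-Cre drives recombination in hepatocytes, and the whole livers also held other cell types, in which deletion was not analysed here. The product of Secisbp2 binds the SECIS hairpin of selenoprotein mRNAs, and Trsp is the gene of the selenocysteine transfer RNA.

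Selenoproteins carry selenocysteine at a UGA codon that would otherwise end translation. Reading it takes the SECIS hairpin, its binding protein and the selenocysteine transfer RNA. The proteins of Selenow, Selenot and Selenoh share a thioredoxin-like fold and a CXXU motif, a cysteine and a selenocysteine with a pair of residues between them, which is the site of their redox chemistry. Selenow encodes a small cytosolic protein, first known from muscle, whose level follows the selenium supply. Selenot encodes a protein anchored in the membrane of the endoplasmic reticulum. Selenoh encodes a nucleolar protein that binds DNA and likewise follows the selenium supply. Because the CXXU motif lies near the start of each protein, little coding sequence precedes the UGA.

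The window lengths and read numbers behind each value were recovered from the deposited RPKM values (reads scaled to the window's length and the library's total). Upstream of the UGA, the window was 6 nt long for Selenow, 81 nt for Selenoh and 114 nt for Selenot. Downstream it was 212 nt for Selenow, 221 nt for Selenoh and 425 nt for Selenot. The 9 footprint libraries together held 41 reads 5' of the Selenow UGA, 49 reads 5' of the Selenoh UGA and 939 reads 5' of the Selenot UGA. Downstream of the UGA they held 380 reads for Selenow, 73 for Selenoh and 375 for Selenot. A single footprint in the Selenow 5' window was worth 8.07 to 32.9 RPKM, depending on the library, and in the Selenot 5' window 0.425 to 1.73 RPKM. The RNA-seq libraries held 6219 reads for Selenow, 24188 for Selenot and 1081 for Selenoh. Recovered library totals were 5065579 to 20645294 reads for footprints and 6522357 to 36510084 reads for RNA-seq.

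Several facts apply to all comparisons. The library codes in the labels put the Secisbp2 knockout, the Secisbp2 wild type and all Trsp libraries into 3 sets, so that for Secisbp2 the effects of genotype and of set cannot be told apart, whereas the Trsp comparison lies within a set. Neither Secisbp2, Trsp nor any marker of a liver cell type is among the 23 genes, so the deletion and the identity of the tissue were not analysed here. In bulk liver, fewer cells that express a gene and less RNA per cell cannot be told apart. Changes are relative to each library's total reads.

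Selenow mRNA was lower in both knockouts, and by nearly the same amount. It was 19.4 and 17.8 RPKM in Secisbp2 knockout livers, against 57.3 and 69.0 RPKM in Secisbp2 wild type livers. In Trsp knockout livers it was 18.03 and 19.3 RPKM, against 66.1, 64.3 and 62.5 RPKM in Trsp wild type livers. No knockout library overlapped a wild type library, and the 4 knockout values lay within 2 RPKM of each other. On the log2(RPKM + 0.5) scale used for all tests, the change was -1.73 in Secisbp2 knockout livers (SE 0.122, limma adjusted p = 1.78e-06), a 3.33-fold lower level. In Trsp knockout livers it was -1.76 (SE 0.111, limma adjusted p = 1.11e-06), or 3.38-fold lower. The difference between the 2 changes was 0.02 (95% interval -0.35 to 0.40, limma adjusted p = 0.887).

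Selenoh mRNA was the least abundant of the 3 and was also lower in both knockouts. It was 4.54 and 4.64 RPKM in Secisbp2 knockout livers, against 11.7 and 10.3 RPKM in their wild type. Trsp knockout livers had 5.604 and 5.75 RPKM, against 7.98, 8.15 and 10.9 RPKM in Trsp wild type. The knockout and wild type libraries did not overlap in either pair, although Trsp wild type replicate 3 stood above the other two. The change was -1.17 with Secisbp2 loss (SE 0.154, limma adjusted p = 0.000116) and -0.61 with Trsp loss (SE 0.1404, limma adjusted p = 0.00301). The Secisbp2 change minus the Trsp change was -0.56 (limma adjusted p = 0.0354), a call that was lost without any 1 of 7 of the 9 libraries (adjusted p up to 0.0980).

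Selenot mRNA, which had the most reads of the 3, differed in direction between the knockouts. It was 32.3 and 30.3 RPKM in Secisbp2 knockout livers, against 26.8 and 23.6 RPKM in Secisbp2 wild type livers. In Trsp knockout livers it was 21.2 and 19.1 RPKM, against 39.3, 42.0 and 42.5 RPKM in Trsp wild type livers. Both Secisbp2 knockout libraries lay above their wild type, and both Trsp knockout libraries lay below theirs. The change was 0.31 in Secisbp2 knockout livers (SE 0.116, limma adjusted p = 0.0371) and -1.02 in Trsp knockout livers (SE 0.106, limma adjusted p = 1.89e-05). The difference between them was 1.33 (SE 0.157, limma adjusted p = 0.000181), and it passed without any single library (1.24 to 1.42). The small rise with Secisbp2 loss rested on its own wild type: it was -0.39 against the Trsp wild type libraries (adjusted p = 0.00735) and -0.11 against all wild types pooled (limma adjusted p = 0.702). It also missed the threshold without any 1 of 6 libraries (adjusted p up to 0.160). Against the Secisbp2 wild type libraries, the Trsp change would be -0.31 (limma adjusted p = 0.0417).

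**Figure D1:**
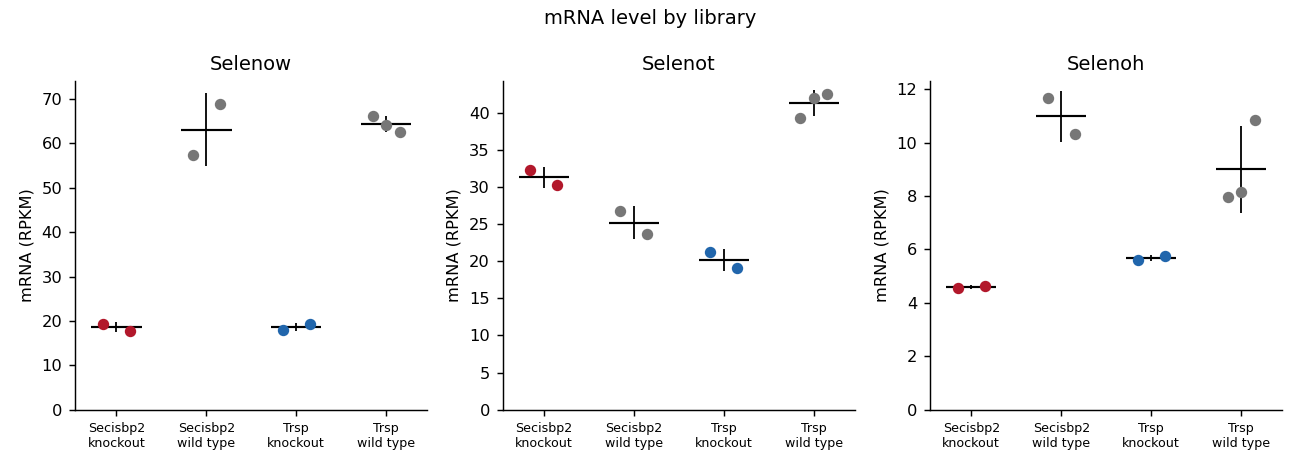
mRNA level in RPKM of Selenow, Selenot and Selenoh in each RNA-seq library (points), by group, with the group mean (horizontal bar) and SD (vertical bar). Selenow sat at 17.8 to 19.4 RPKM in all knockout libraries and at 57.3 to 69.0 RPKM in all wild type libraries, while the Selenot levels of the 2 wild types were apart.

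Against the background of all selenoproteins, these calls were common. Of the 20 mRNAs tested, 70% changed in Secisbp2 knockout livers (50% fell and 20% rose) and 75% in Trsp knockout livers (70% fell), with median log2 changes of -0.39 and -0.66. Among the 3 genes, 2 fell and 1 rose with Secisbp2 loss, and 3 fell with Trsp loss. The difference between the knockout changes passed for 2 of the 3, Selenot and Selenoh, where 70% of the mRNAs tested passed, 35% with a lower and 35% with a higher Secisbp2 change. Scaling each library to the median selenoprotein added 0.50 to the mRNA changes in Secisbp2 knockout livers and 0.56 in Trsp knockout livers. On that scale 8 mRNAs fell and 6 rose with Secisbp2 loss, and 7 fell and 4 rose with Trsp loss. Selenow mRNA stayed lower (-1.23 and -1.19), Selenot mRNA came to 0.81 with Secisbp2 loss (limma adjusted p = 0.000849) and -0.45 with Trsp loss (limma adjusted p = 0.0179), and the Trsp change of Selenoh came to -0.044 (limma adjusted p = 0.777).

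**Figure D2:**
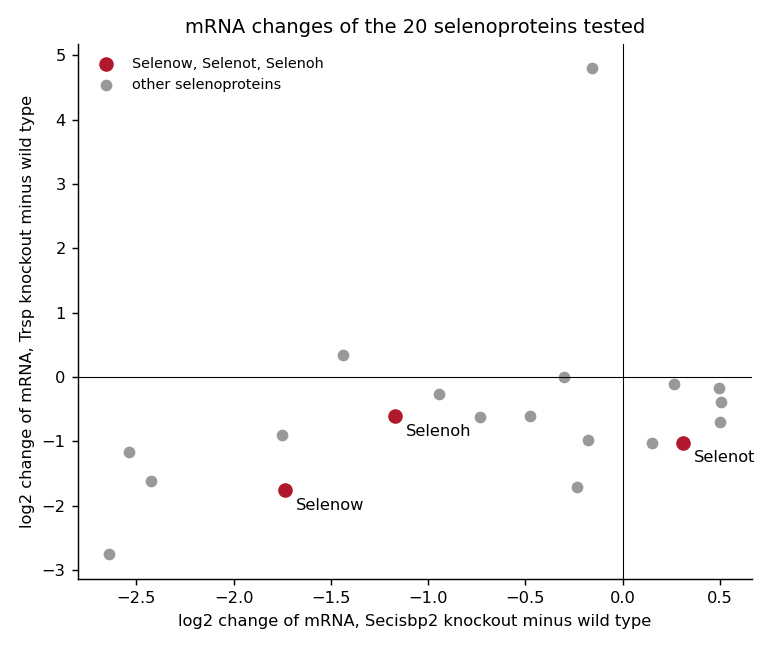
log2 change of mRNA (RPKM + 0.5, relative to the library total) in Secisbp2 knockout livers (x axis) and Trsp knockout livers (y axis), each against its own wild type, for the 20 selenoprotein mRNAs tested. Selenow lay at -1.73 and -1.76, Selenoh at -1.17 and -0.61, and Selenot at 0.31 and -1.02, on the other side of 0 along the x axis, where it moves to -0.39 against the Trsp wild type.

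The wild types of the 2 colonies did not have the same Selenot mRNA. It was 26.8 and 23.6 RPKM in Secisbp2 wild type livers, against 39.3, 42.0 and 42.5 RPKM in Trsp wild type livers, a log2 difference of -0.70 (SE 0.106, limma adjusted p = 0.000562). Of the mRNAs tested, 45% differed between the wild types and 25% were lower in Secisbp2 wild type. Selenow differed by -0.03 (95% interval -0.28 to 0.22) and Selenoh by 0.29 (95% interval -0.03 to 0.60), and neither passed. Selenoh did pass without Trsp wild type replicate 3 (0.42, limma adjusted p = 0.00768) and when scaled to the median selenoprotein (0.41, limma adjusted p = 0.0464). The wild types also differed in library set, and the part of that in the Selenot difference was not tested.

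Among all 23 genes, ranked by mean mRNA over the wild type groups, Selenow stood 10th, Selenot 13th and Selenoh 15th. By group mean, Selenow stood above Selenot in both wild types and below it in both knockouts. In Trsp knockout replicate 2 the levels were nearly equal, Selenow at 19.3 and Selenot at 19.1 RPKM. Selenow mRNA was 1.46 to 2.88 times the Selenot mRNA in the 5 wild type libraries and 0.592 to 1.01 times in the 4 knockout libraries. The log2 ratio of Selenow to Selenot mRNA was 2.04 lower in Secisbp2 knockout livers than in wild type and 0.74 lower in Trsp knockout livers. An exact permutation test with genotype exchanged within each colony gave p = 0.0167, the smallest that its 60 arrangements allow, and 0.05 after adjustment over the 6 ratios compared, at the threshold and not under it. The ratio of Selenow to Selenoh mRNA was lower by a mean of 0.86 (exact permutation p = 0.0167, adjusted p = 0.05), with -0.56 in Secisbp2 and -1.15 in Trsp. The ratio of Selenoh to Selenot mRNA moved apart in the knockouts, by -1.48 in Secisbp2 and 0.41 in Trsp, and did not pass (exact permutation p = 0.317, adjusted p = 0.38).

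Footprints 3' of the UGA come from ribosomes that have read through the codon. Selenow had 7.92 and 5.48 RPKM there in Secisbp2 knockout livers, against 29.7 and 29.4 RPKM in their wild type. Trsp knockout livers had 4.03 and 2.93 RPKM, from 5 reads each, against 33.2, 57.1 and 38.2 RPKM in Trsp wild type livers. No knockout library overlapped a wild type library, and Trsp wild type replicate 2 was the highest. The change was -2.08 with Secisbp2 loss (SE 0.363, limma adjusted p = 0.000281), or 4.23-fold lower. With Trsp loss it was -3.42 (SE 0.331, limma adjusted p = 2.09e-06), or 10.7-fold lower. Without Trsp wild type replicate 2 and in the other single omissions the Trsp change ranged from -3.62 to -3.19. The 2 changes differed by 1.34 (limma adjusted p = 0.0622), which did not pass, and did so without Secisbp2 knockout replicate 2 (1.59, limma adjusted p = 0.0470) and also when Trsp wild type replicate 1 was left out (1.501, limma adjusted p = 0.0460).

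Selenot showed the widest gap between the knockouts downstream of the UGA. It had 5.51 and 3.53 RPKM (46 and 31 reads) in Secisbp2 knockout livers, against 8.79 and 7.25 RPKM (38 and 42 reads) in Secisbp2 wild type livers. Trsp knockout livers had 2.01 and 1.46 RPKM, again from 5 reads each, against 23.1, 32.0 and 26.01 RPKM in Trsp wild type livers (71, 81 and 56 reads). The knockouts lay below their own wild types in both pairs. The Secisbp2 change of -0.78 did not pass (SE 0.342, 95% interval -1.54 to -0.03, limma adjusted p = 0.0527), except without Secisbp2 knockout replicate 1 (-1.07, limma adjusted p = 0.0211). The Trsp change was -3.62 (SE 0.313, limma adjusted p = 8.61e-07), or 12.3-fold lower in RPKM + 0.5 and 15.8-fold lower by reads. The difference of 2.84 between them passed (SE 0.464, limma adjusted p = 0.00116), with 25% of the 12 genes tested passing.

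The 2 wild types were unequal in this measure, Selenot 3' footprints being 3.22-fold lower in Secisbp2 wild type livers than in Trsp wild type livers. The log2 difference was -1.69 (SE 0.313, limma adjusted p = 0.00320), where 25% of the genes tested differed and 16.7% were lower, and it was -1.56 (adjusted p = 0.0534) without Secisbp2 wild type replicate 2. Against the Trsp wild type libraries, the Secisbp2 knockout change of Selenot would be -2.47 (limma adjusted p = 2.24e-05), and against the Secisbp2 wild type libraries the Trsp knockout change would be -1.93 (limma adjusted p = 0.000246). Between the knockouts themselves, 77 reads in Secisbp2 and 10 reads in Trsp knockout livers gave a rate 2.66 times as high in Secisbp2 knockout livers (exact 95% interval 1.37 to 5.76, which covers counting error only).

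Selenoh had few footprints 3' of the UGA but was lower in both knockouts. It had 1.84 and 1.32 RPKM (8 and 6 reads) in Secisbp2 knockout livers, against 8.45 and 5.31 RPKM (19 and 16 reads) in wild type. Trsp knockout livers had 1.55 and 1.12 RPKM (2 reads each), against 5.62, 4.56 and 4.47 RPKM (9, 6 and 5 reads) in Trsp wild type. The groups did not overlap in either pair. The changes were -1.81 with Secisbp2 loss (SE 0.342, limma adjusted p = 0.000474) and -1.56 with Trsp loss (SE 0.312, limma adjusted p = 0.000592). The rate in Trsp knockout livers was 0.263 of that in wild type by reads (exact 95% interval 0.0653 to 0.784), and with weights that follow the read numbers the Trsp change did not pass (-1.58, limma adjusted p = 0.0781).

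Downstream of the UGA, 75% of the 12 genes tested changed in Secisbp2 knockout livers and 83.3% in Trsp knockout livers, and none of them rose. The 3 genes gave 2 and 3 calls, all lower relative to the library total. Their changes stood at or above the medians of the genes tested, -2.29 and -3.18, except for Selenow and Selenot with Trsp loss. Scaling to the median selenoprotein added 2.22 and 2.98 to the changes, which turned the Secisbp2 changes of all 3 and the Trsp change of Selenoh to above 0. On that scale 1 gene fell and 2 rose with Secisbp2 loss, and 3 fell and 3 rose with Trsp loss.

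Upstream of the UGA, footprints count ribosomes before they reach the codon. Selenot had 81.7 and 56.9 RPKM in Secisbp2 knockout livers, against 130 and 158 RPKM in Secisbp2 wild type livers. It had 31.5 and 49.0 RPKM in Trsp knockout livers, against 84.7, 56.0 and 90.0 RPKM in Trsp wild type livers. The knockout libraries lay below their wild type in both pairs, the highest Trsp knockout library being close to Trsp wild type replicate 2. The changes were -1.06 (SE 0.339, limma adjusted p = 0.0328) and -0.93 (SE 0.310, limma adjusted p = 0.0300), and each lost its call in some single omissions (adjusted p up to 0.205 without Secisbp2 knockout replicate 2 and 0.195 without Trsp knockout replicate 1). With the wild types exchanged, the Secisbp2 change would be -0.14 (limma adjusted p = 0.824) and the Trsp change -1.85 (limma adjusted p = 0.00239), and scaled to the median selenoprotein they were -0.38 and -0.23 (limma adjusted p = 0.388 and 0.662). With Secisbp2 loss, Selenot 5' footprints and Selenot mRNA stood on opposite sides of their own wild type.

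Selenow 5' values rest on 1 to 9 reads per library. It had 25.5 and 56.5 RPKM in Secisbp2 knockout livers (3 and 7 reads), against 98.3 and 110.0 RPKM in wild type (6 and 9 reads). Trsp knockout livers had 28.5 and 41.4 RPKM (1 and 2 reads), against 92.0, 112 and 165 RPKM in Trsp wild type (4, 4 and 5 reads). The knockouts were lower in every library, with changes of -1.44 (limma adjusted p = 0.0263) and -1.78 (limma adjusted p = 0.00601). By reads alone the rate ratio was 0.394 in Secisbp2 (exact 95% interval 0.158 to 0.938) and 0.303 in Trsp (0.0554 to 1.10), of which the Trsp interval includes 1. With weights that follow the reads neither passed (adjusted p = 0.0683 and 0.0549), and the Secisbp2 call was also lost without 3 of the 4 Secisbp2 libraries, the exception being knockout replicate 2 (adjusted p up to 0.137).

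Selenoh 5' values rest on 0 to 17 reads. It had 3.14 and 3.59 RPKM in Secisbp2 knockout livers, against 20.6 and 6.34 RPKM in wild type, and 6.34 and 1.53 RPKM in Trsp knockout livers, against 8.52, 10.4 and 0 RPKM in Trsp wild type. The Trsp wild type library without a read allows up to 7.31 RPKM (3 reads). Neither change passed (limma adjusted p = 0.357 in Secisbp2 and 0.985 in Trsp), and a difference was not detectable at this depth in Trsp. Of the 20 genes tested upstream of the UGA, 45% changed in Secisbp2 knockout livers, all lower relative to library totals, and 60% in Trsp knockout livers, 55% lower. Scaled to the median selenoprotein, 5 fell and 8 rose with Secisbp2 loss, and 4 fell and 3 rose with Trsp loss. Selenow 5' changes were then -0.76 and -1.08 and did not pass (limma adjusted p = 0.208 and 0.116).

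**Figure D3:**
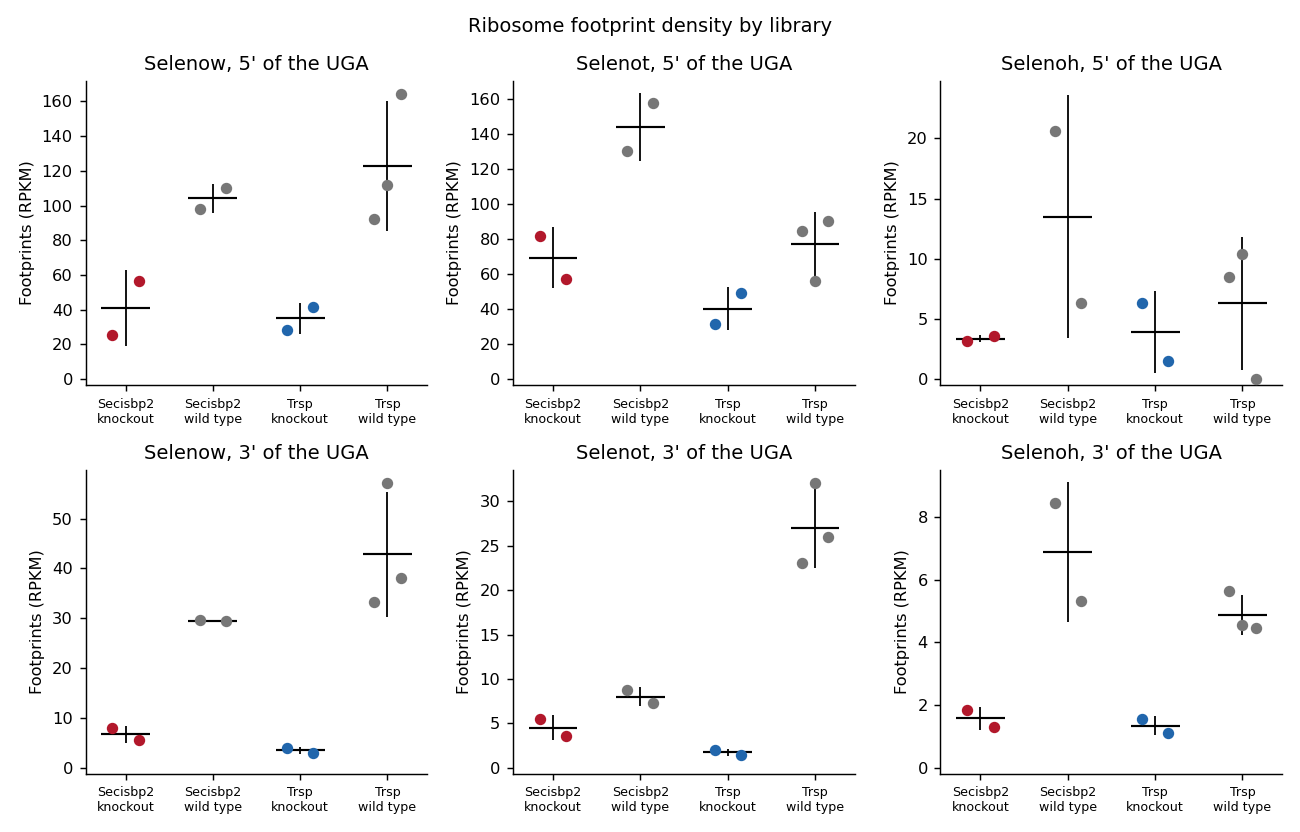
Footprint density in RPKM 5' of the UGA (upper row) and 3' of it (lower row) in each footprint library (points), by group, with the group mean (horizontal bar) and SD (vertical bar). Selenot 3' of the UGA was at 23.1 to 32.0 RPKM in Trsp wild type livers and at or under 8.79 RPKM in every other library.

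The 3' density as a percentage of the 5' density of the same library was used as an index of ribosomes passing the UGA, known as UGA redefinition. It is not the share of ribosomes that pass, and it compares windows of unequal length. For Selenof in Secisbp2 wild type replicate 2, the 3' density (162.6 RPKM) was above the 5' density (129.7 RPKM). For Selenot it was 6.74% and 6.21% in Secisbp2 knockout livers, against 6.75% and 4.60% in Secisbp2 wild type livers. In Trsp knockout livers it was 6.39% and 2.98%, against 27.2%, 57.2% and 28.9% in Trsp wild type livers. The Trsp wild type libraries stood apart, and the other 6 libraries lay within 2.98% to 6.75%. The log2 change was 0.28 with Secisbp2 loss (95% interval -0.90 to 1.46, limma adjusted p = 0.717) and -2.69 with Trsp loss (SE 0.453, limma adjusted p = 0.00146). The difference between them was 2.97 (SE 0.672, limma adjusted p = 0.00958), with 33.3% of the 12 genes passing, and it was 1.79 and did not pass when scaled to the median selenoprotein (limma adjusted p = 0.103).

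Between the wild types, Selenot redefinition differed by a log2 value of -2.61 (SE 0.453, limma adjusted p = 0.00877), 6.10-fold lower in Secisbp2 wild type livers, at 5.67% ± 1.52 (SD, n = 2), than in Trsp wild type livers, at 37.8% ± 16.8 (SD, n = 3). Selenot was the only one of the 12 genes tested that passed in this comparison (8.33%), although 3 of them had an unadjusted p under 0.05. Selenot 5' footprints were at 130 and 158 RPKM in Secisbp2 wild type livers, against 56.0 to 90.0 RPKM in Trsp wild type livers. That log2 difference of 0.92 did not pass (SE 0.310, limma adjusted p = 0.0749), whereas the lower 3' footprints in Secisbp2 wild type livers did. The redefinition call was lost without Secisbp2 wild type replicate 2 (-2.34, adjusted p = 0.102). Whether the library sets contribute to it was not tested, and with no sample-identifying gene in the tables the wild type labels themselves could not be checked, which bears on every Selenot comparison. Measured against the Secisbp2 wild type libraries, the Trsp knockout change of Selenot redefinition would be -0.08 (limma adjusted p = 0.874), and against the Trsp wild type libraries the Secisbp2 knockout change would be -2.33 (limma adjusted p = 0.00571).

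Selenow redefinition was 31.1% and 9.70% in Secisbp2 knockout livers, against 30.2% and 26.7% in wild type, and 14.2% and 7.08% in Trsp knockout livers, against 36.1%, 50.9% and 23.2% in Trsp wild type. The Secisbp2 groups overlapped and the Trsp groups did not. The change was -0.64 with Secisbp2 loss (95% interval -2.15 to 0.87, limma adjusted p = 0.523) and -1.64 with Trsp loss (SE 0.580, limma adjusted p = 0.0347), and this Trsp call was lost without any 1 of 5 libraries (adjusted p up to 0.214) and with read weights (adjusted p = 0.138). Selenoh redefinition was 58.6% and 36.7% in Secisbp2 knockout livers, against 41.0% and 83.8% in wild type, and 24.4% and 73.3% in Trsp knockout livers, against 66.0% and 44.0% in the Trsp wild type libraries with 5' reads. The Selenoh groups overlapped throughout and neither change passed (limma adjusted p = 0.909 in Secisbp2 and 0.258 in Trsp). The Trsp fit also held Trsp wild type replicate 3, without 5' reads, at a log2 ratio of 3.31 set by the 0.5 RPKM added. The other Trsp wild type libraries were at -0.56 and -1.10. The Trsp change of -1.58 ranged from -2.41 to -0.20 over single omissions. Of the 12 genes tested, 25% changed with Secisbp2 loss and 75% with Trsp loss, where 0 and 2 of the 3 genes did.

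**Figure D4:**
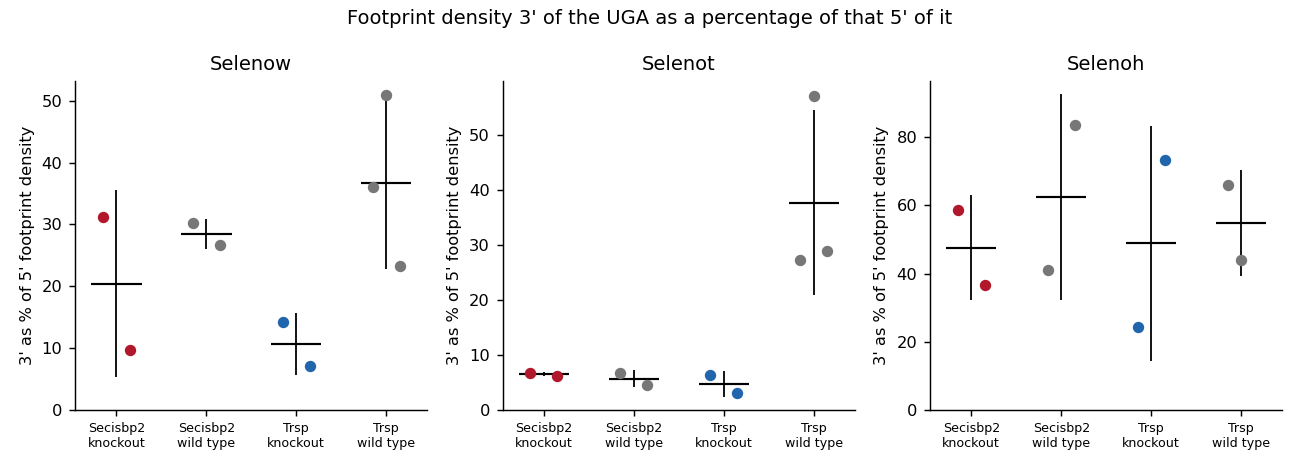
Footprint density 3' of the UGA as a percentage of the density 5' of it, in each footprint library (points), by group, with the group mean (horizontal bar) and SD (vertical bar). Selenoh has no point for the Trsp wild type library without 5' reads. For Selenot the 3 Trsp wild type libraries, at 27.2% to 57.2%, stand above all others.

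Dividing the 3' footprint density by the mRNA level sets ribosomes past the UGA against the mRNA present, and does not use the short 5' windows. For Selenot this ratio of group means was 0.144 in Secisbp2 knockout livers, against 0.318 in Secisbp2 wild type livers, and 0.0861 in Trsp knockout livers, against 0.655 in Trsp wild type livers. The log2 changes were -1.10 (SE 0.337, limma adjusted p = 0.0160) and -2.60 (SE 0.308, limma adjusted p = 2.44e-06). The Secisbp2 call was lost without knockout replicate 2 (-0.85, adjusted p = 0.109) or without either wild type library (adjusted p = 0.0888 and 0.0598). For Selenow the ratio was 0.361 in Secisbp2 knockout livers, against 0.468 in wild type, and 0.187 in Trsp knockout livers, against 0.666 in Trsp wild type. The Selenow change was -0.35 with Secisbp2 loss (95% interval -1.13 to 0.44, limma adjusted p = 0.432) and -1.66 with Trsp loss (SE 0.336, limma adjusted p = 0.000292). For Selenoh the ratio was 0.344 in Secisbp2 knockout livers, against 0.626 in wild type, and 0.235 in Trsp knockout livers, against 0.543 in Trsp wild type. Its changes were -0.63 (limma adjusted p = 0.186) and -0.95 (SE 0.323, limma adjusted p = 0.0122), and the Trsp call was lost without Trsp knockout replicate 2 (-0.76, adjusted p = 0.106) and without replicate 1 of Trsp wild type (-0.78, adjusted p = 0.0691).

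Per mRNA, 33.3% of the 12 genes tested changed 3' of the UGA in Secisbp2 knockout livers and 91.7% in Trsp knockout livers (83.3% lower), against 1 and 3 of the 3 genes. Scaled to the median selenoprotein, 1 gene fell and 2 rose with Secisbp2 loss, and 2 fell and 3 rose with Trsp loss. The Secisbp2 call of Selenot (0.060) and the Trsp calls of Selenot (-0.41) and Selenow (0.53) were then lost, and Selenoh was higher with Trsp loss (1.24, limma adjusted p = 0.00024). The Trsp change was the further from 0 for Selenot by 1.51 (limma adjusted p = 0.0143) and for Selenow by 1.31 (limma adjusted p = 0.0316), where 66.7% of the genes tested differed and 58.3% did so in this direction. Both calls ended when scaled to the median selenoprotein (0.47 for Selenot and 0.28 for Selenow, limma adjusted p = 0.248 and 0.588). The Selenow difference ranged from 1.07 to 1.56 over single omissions and lost its call in 5 of the 9 (limma adjusted p up to 0.128, without Trsp knockout replicate 2). The Selenot difference ranged from 1.27 to 1.75 and lost its call in 2 of the 9 (adjusted p = 0.0534 without Trsp knockout replicate 2 and 0.0505 without Secisbp2 wild type replicate 2). The Selenot difference between the wild types was -0.98 in this measure (limma adjusted p = 0.0240), lost without any 1 of 5 libraries (adjusted p up to 0.164), with 25% of the genes tested passing and 8.33% lower.

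The density of 5' footprints per mRNA was 2.21 for Selenot in Secisbp2 knockout livers, against 5.71 in Secisbp2 wild type livers, and 1.997 in Trsp knockout livers, against 1.86 in Trsp wild type livers. Secisbp2 wild type stood above the other groups. The log2 change was -1.38 with Secisbp2 loss (SE 0.362, limma adjusted p = 0.0464), a call that was lost without any 1 of 6 libraries (adjusted p up to 0.295 without Secisbp2 wild type replicate 2), and 0.09 with Trsp loss (limma adjusted p = 0.797). Between the wild types it was 1.63 (SE 0.330, limma adjusted p = 0.00609), and 1.40 without Secisbp2 wild type replicate 2 (adjusted p = 0.0917). Of the 20 genes tested, 5% changed with Secisbp2 loss, 10% with Trsp loss and 10% between the wild types. For Selenow the changes were 0.29 and -0.02 and did not pass (limma adjusted p = 0.755 and 0.958).

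**Figure D5:**
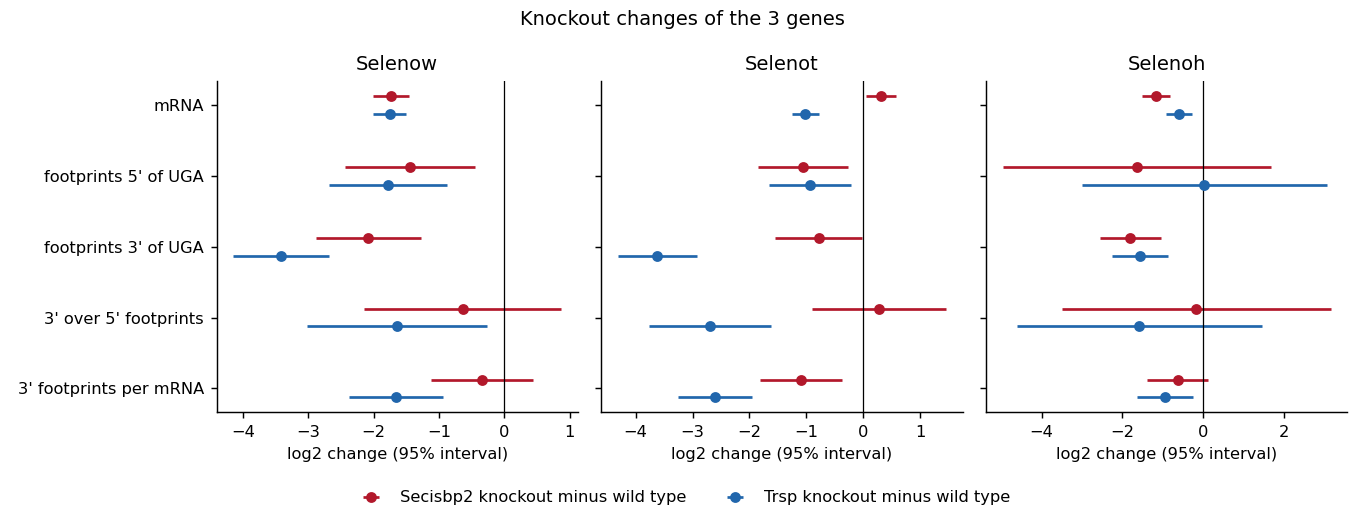
log2 change (points) with its 95% interval (lines) of Selenow, Selenot and Selenoh in Secisbp2 knockout livers (red) and Trsp knockout livers (blue), each against its own wild type and relative to library totals, for mRNA, footprints 5' and 3' of the UGA, and their ratios. Selenot 3' of the UGA is at -0.78 with Secisbp2 loss and -3.62 with Trsp loss, Selenow mRNA is at -1.73 and -1.76, and the Selenoh intervals that use the 5' window are the widest. The Secisbp2 3' changes lie above 0 when scaled to the median selenoprotein.

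Downstream of the UGA, the log2 ratio of Selenow to Selenoh was lower in the knockouts by a mean of 1.07 (exact permutation p = 0.0333, adjusted p = 0.0667 over the 6 ratios). Most of this mean came from Trsp, where the ratio moved by -1.86. In Secisbp2 it moved by -0.27, with knockout and wild type libraries overlapping. The ratio of Selenow to Selenot moved by -1.30 in Secisbp2 knockout livers and 0.20 in Trsp knockout livers (exact permutation p = 0.3), and the ratio of Selenoh to Selenot by -1.02 and 2.06 (exact permutation p = 0.4). None of the 3 passed.

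Likeness of profile was measured as the root mean square difference of log2(RPKM + 0.5), each gene centred on its own mean over 9 libraries, so that a small value means a like pattern. The mRNA profile nearest to that of Selenow was that of Selenop, the plasma selenium carrier (0.41), then that of Gpx1, the cytosolic glutathione peroxidase (0.48). Nearest to Selenot mRNA were Selenoi, an ethanolamine phosphotransferase (0.27), and Msrb1, a methionine sulfoxide reductase (0.31). Nearest to Selenoh mRNA were Msrb1 (0.26) and Gpx4, the lipid hydroperoxide peroxidase (0.38). For footprints 3' of the UGA, Selenow was nearest to Selenop (0.35) and Gpx4 (0.42), Selenot to Selenow (0.51) and Dio1, the type 1 deiodinase (0.66), and Selenoh to Selenof (0.64) and Gpx4 (0.66). All genes were read in the same libraries and share their depth.

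The thioredoxin-like fold is shared with Selenom and Selenof, both of the endoplasmic reticulum, and with Selenov, which was not analysed here. Of these 5 mRNAs, 3 fell, 1 rose and 1 did not pass in Secisbp2 knockout livers (median -0.73, against -0.39 over all genes tested), and 4 fell and 1 did not pass in Trsp knockout livers (median -0.62, against -0.66). Relative to the median selenoprotein, 2 fell and 2 rose with Secisbp2 loss and 2 fell with Trsp loss. Selenof mRNA was 51.4 ± 0.832 RPKM in Secisbp2 knockout livers, against 85.7 ± 6.59 RPKM in wild type (SD, n = 2 each), a change of -0.73 (limma adjusted p = 0.000909), and it fell by 0.62 in Trsp knockout livers (limma adjusted p = 0.00113). Selenom mRNA was close to the minimum of 1 RPKM, at 1.75 ± 0.0167 RPKM in Secisbp2 knockout livers, against 1.46 ± 0.844 RPKM in wild type (SD, n = 2 each), and passed in neither knockout (0.27 and -0.11). Of the 4 tested 3' of the UGA, 3 fell with Secisbp2 loss and 4 with Trsp loss, and relative to the median selenoprotein 1 rose with Secisbp2 loss and 1 fell and 1 rose with Trsp loss. Selenof fell there by 3.31 in Secisbp2 knockout livers (limma adjusted p = 2.84e-05) and by 2.30 in Trsp knockout livers (limma adjusted p = 0.000102).

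Selenow and Selenoh are also among the mRNAs known to follow the selenium supply, with Gpx1 and Msrb1. All 4 fell in each knockout as mRNA and 3' of the UGA, relative to library totals, where 50% and 70% of all mRNAs and 75% and 83.3% of all genes 3' of the UGA fell with Secisbp2 and Trsp loss. Their median mRNA changes were -1.45 with Secisbp2 loss and -1.18 with Trsp loss, and relative to the median selenoprotein 3 and 2 of the 4 mRNAs fell. On that scale 3' of the UGA, 0 of the 4 passed with Secisbp2 loss, and 1 fell and 1 rose with Trsp loss. Gpx1 mRNA moved furthest, by -2.64 and -2.76, and Msrb1 least in Secisbp2 knockout livers, by -0.48.

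Selenot belongs with Selenof, Selenom, Selenok, Selenos, Selenoi, Selenon and Dio2 to the selenoproteins of the endoplasmic reticulum, of which 6 mRNAs passed the minimum of 1 RPKM. In Secisbp2 knockout livers 2 of them fell (Selenof and Selenos), 2 rose (Selenot and Selenoi, 0.51, limma adjusted p = 0.0107) and 2 did not pass, against 50% lower and 20% higher over all mRNAs. Both that rose were lower in Secisbp2 than in Trsp wild type livers, Selenot by -0.70 (limma adjusted p = 0.000562) and Selenoi by -0.52 (limma adjusted p = 0.00807). Against the Trsp wild type, Selenot came to -0.39. With Trsp loss 4 of the 6 fell and 2 did not pass, against 70% lower over all mRNAs. Relative to the median selenoprotein, 1 fell and 3 rose with Secisbp2 loss and 2 fell with Trsp loss. Selenok mRNA also differed between the knockouts, with mRNA changes of -0.24 (limma adjusted p = 0.192) and -1.70 (limma adjusted p = 5.21e-06) and a difference of 1.47 (limma adjusted p = 0.000377).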

How the data were processed

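The authors deposited RPKM values of 23 genes, per the file headers, with 1 table each for footprints upstream and downstream of the UGA and for RNA-seq. Reads were aligned with Bowtie 0.12.8 and the build was mm9, per the submitters' processing notes. How RPKM, windows and reads shared with near-identical copies were handled is not stated in the labels or headers used here. Selenot has a pseudogene in RefSeq, so its values may hold shared reads. Coordinates are not given because the table of gene names used (GRCm38.p6) is of another build. In 1 cell, for Selenof, a date stood for the number, and its serial number was used.

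Reads were recovered from the deposited RPKM by common factors: 514 of 514 values above 0 lay within 0.001 of a whole number; the method was checked on simulated data. Window lengths and totals are known up to a shared factor. The exact 95% intervals of rate ratios and the floor of 3 reads describe counting error alone. The other 95% intervals are from limma and follow the spread between libraries. Log2(RPKM + 0.5) was tested for genes averaging 1 RPKM or more with limma 3.58.1 in R 4.3.3, 4 groups in 1 fit, two-sided, Benjamini-Hochberg adjusted over the genes tested, threshold 0.05, after tests on simulated data. This scale understates changes of low genes. For footprints per mRNA, 1 fit instead held the 4 groups of each assay and tested the interaction of assay and genotype. It treated footprint and RNA-seq libraries as independent and gave them a shared estimate of the spread. The labels state 3 mice per background, but do not tie libraries to mice, so p-values measure the spread between libraries. Ratios of members were compared by exact permutation (scipy 1.17.1). The members named, the lists, tests and alternatives were chosen with earlier results of these data known. Named genes were the 3 members, their lists and the 2 nearest profiles of each; Selenov had no row in the tables analysed. Alternatives are given in the closing section.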

Additional observations from a re-analysis of the deposited data

Results flagged for a closer look

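In 6 of 18 tests (3 genes by 6 measures) the change in Secisbp2 knockout livers differed from that in Trsp knockout livers, by the limma test of the difference itself. They were Selenot mRNA (1.33, adjusted p = 0.000181), Selenoh mRNA (-0.56, adjusted p = 0.0354), Selenot footprints 3' of the UGA (2.84, adjusted p = 0.00116), the 3' over 5' footprints of Selenot (2.97, adjusted p = 0.00958), and the 3' footprints per mRNA of Selenot (1.51, adjusted p = 0.0143) and Selenow (1.31, adjusted p = 0.0316). Over all genes tested, 70% passed this test for mRNA, 25% for footprints 3' of the UGA, 33.3% for 3' over 5' footprints and 66.7% for 3' footprints per mRNA. For footprints 5' of the UGA, 5 of the 20 genes tested passed with a lower and 6 with a higher Secisbp2 change. For 5' footprints per mRNA, 0 of 20 passed. None of the 3 genes passed in either of these measures. Scaled to the median selenoprotein, 3 of the 6 no longer passed: the 3' over 5' footprints of Selenot (1.79, adjusted p = 0.103) and the 3' footprints per mRNA of Selenot (0.47, adjusted p = 0.248) and Selenow (0.28, adjusted p = 0.588). The Selenot differences stand beside wild types that themselves differed in mRNA by -0.70, 3' of the UGA by -1.69, in 3' over 5' footprints by -2.61 and in 3' footprints per mRNA by -0.98 (Secisbp2 minus Trsp wild type, log2). The wild types of Selenow differed by -0.46 in 3' footprints per mRNA (adjusted p = 0.383). With groups of 2 or 3 libraries, single libraries were not tested as outliers.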

How the results depend on the processing

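Values are log2 changes. Scaling to the median selenoprotein, which by its construction takes out the shared fall, moved most values. It left the Trsp mRNA change of Selenoh at -0.044 and turned the Selenow mRNA difference between knockouts to -0.037 and between wild types to 0.092. The Selenoh difference between wild types then passed for mRNA (0.41, limma adjusted p = 0.0464). It also passed for footprints 3' of the UGA (0.71, limma adjusted p = 0.0238), where unscaled it did not (0.43, limma adjusted p = 0.272). Footprints 3' of the UGA came to 0.42 (Selenoh), 1.44 (Selenot, adjusted p = 0.00269) and 0.14 (Selenow) with Secisbp2 loss and to 1.43 (Selenoh) and -0.44 (Selenow) with Trsp loss. The 3' over 5' ratio came to 0.71 (Selenoh) and 0.24 (Selenow) with Secisbp2 loss and to 0.48 (Selenoh), -0.63 (Selenot) and 0.42 (Selenow) with Trsp loss. The 3' footprints per mRNA came to 0.52 (Selenoh), 0.060 (Selenot) and 0.81 (Selenow) with Secisbp2 loss and to 1.24 (Selenoh), -0.41 (Selenot) and 0.53 (Selenow) with Trsp loss.

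With the other colony's wild type, Secisbp2 changes of Selenot came to -0.39 for mRNA, -2.47 for 3' footprints, -2.33 for 3' over 5', -0.14 for 5' footprints, -2.08 for 3' footprints per mRNA and 0.25 for 5' footprints per mRNA, and that of Selenoh 5' to 0.076. Trsp changes of Selenot came to -0.31 for mRNA, -1.93 for 3' footprints, -1.62 for these per mRNA and -1.85 for 5' footprints, and Trsp changes to -0.082 (Selenot) and -1.35 (Selenow) for 3' over 5', -1.54 for Selenot 5' footprints per mRNA and -1.69 for Selenoh 5'. With wild types pooled, Selenot gave -0.11 for mRNA, -1.80 for 3' footprints, -1.28 for 3' over 5' and -1.68 (adjusted p = 0.0551) for 3' footprints per mRNA in Secisbp2, and -1.65 for 3' over 5' and -0.56 for 5' footprints per mRNA in Trsp, where Selenoh 5' gave -0.66. For these the cause was not tested.

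With read weights, Trsp calls were lost for Selenoh 3' (-1.58), Selenow 3' over 5' (-1.70) and Selenoh 3' per mRNA (-0.97), and Selenoh 5' turned to -0.87. Without an RPKM minimum, in a fit that held more genes, the Trsp call of Selenow 3' over 5' was lost (-1.64, adjusted p = 0.0569). With only the groups compared, in a fit of fewer libraries, Selenot mRNA in Secisbp2 lost its call (0.31, adjusted p = 0.138). A pseudocount of 1 RPKM turned Selenoh 5' in Trsp to -0.15 and brought the Selenow to Selenot (-1.37) and Selenow to Selenoh (-0.89 for mRNA and -1.17 3' of the UGA) ratios to adjusted p = 0.0333, a value set by how many of the 6 ratios reach the smallest p. Whether the replicate numbers pair the libraries is not known. Correlations of deviations between same-numbered libraries ran from -0.44 to 0.67. They cannot decide it, because in a group of 2 libraries the deviations mirror each other. With a replicate block Selenot mRNA in Secisbp2 lost its call (0.31, adjusted p = 0.0546). Selenoh 5' in Trsp came to -1.41 with the block and passed (limma adjusted p = 0.0170). It was also -1.41 without Trsp wild type replicate 3, where it did not pass (limma adjusted p = 0.0815).

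Leaving out a library at a time gave, in Secisbp2, 0.22 to 0.40 for Selenot mRNA, -1.07 to -0.50 for Selenot 3', -1.34 to -0.85 for Selenot 3' per mRNA, and for 3' over 5' -0.67 to 0.34 (Selenoh) and -1.45 to 0.18 (Selenow). In Trsp it gave -1.14 to -0.76 for Selenoh 3' per mRNA, -2.11 to -1.17 for Selenow 3' over 5', -1.41 to 0.90 for Selenoh 5' and -0.30 to 0.47 for Selenot 5' per mRNA. The Selenow mRNA difference ranged from -0.11 to 0.16 between knockouts and from -0.16 to 0.10 between wild types. The Selenow mRNA changes passed in both knockouts under every alternative (-1.87 to -1.19), as did the Trsp changes of Selenot mRNA (-1.09 to -0.31) and Selenot 3' footprints (-3.89 to -0.64). Over all genes, 3 of 12 passed for 3' over 5' with Secisbp2 loss, 0 to 5 under alternatives. Depth limits Selenow and Selenoh 5' of the UGA, and Selenoh throughout the footprints.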
